A study of Mus musculus with 12 samples.

Results

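Lin28a, Lin28b, Igf2bp1, Igf2bp2, Igf2bp3, Hmga1, Hmga2, Arid3a and Dis3l2 are the 9 genes described here, in the polyA RNA of mouse fetal liver. They were taken by gene symbol, and all 9 symbols had a row among the 30743 rows of the deposited table. The livers came from male C57BL/6J fetuses at 15 ± 0.5 dpc (days post coitum). There were 6 control fetuses, whose dams ate a 13.5 kcal% fat chow, and 6 HFD (high-fat diet) fetuses, whose dams ate a 60 kcal% fat diet, in both cases for 12 to 14 weeks and without restriction. Whole livers were sequenced, so hepatoblasts, blood cells and stroma contribute to each value, and fewer cells of a type cannot be told apart from less RNA per cell. The table gives the difference between the diets only as the authors' own fold changes and p-values, which were not used here. The levels below are therefore the authors' averages over all 12 livers of both diets, with no value for a single liver, no SD between livers and no diet comparison.

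These genes belong to the circuit that sets the timing of fetal development. LIN28A and LIN28B are RNA-binding proteins that block the maturation of let-7 precursors, and DIS3L2 is the exonuclease that degrades the precursors once LIN28 has had a uridine tail added to them. Mature let-7 pairs through its seed with sites in the 3′UTRs of fetal genes, among them Hmga2, Igf2bp1, Igf2bp3, Arid3a and Lin28b, and lowers their output. IGF2BP1, IGF2BP2 and IGF2BP3 bind and stabilise mRNAs, HMGA1 and HMGA2 are architectural chromatin proteins, and ARID3A is a DNA-binding factor of early B-lymphoid and hematopoietic cells. In the fetal liver, where blood stem cells expand, Lin28b and its targets are known for marking fetal as opposed to adult hematopoiesis.

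The sequences that tie the genes together are the let-7 RNAs and their target sites. Of the RefSeq mature miRNAs (build GRCm38.p6), 9 names from let-7a to miR-98 were matched, and all 9 carry the same seed. The 4 forms printed here show how little the family varies outside the seed, whose bases 2 to 8 are in capitals.
mmu-let-7a-5p: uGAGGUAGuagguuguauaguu
mmu-let-7d-5p: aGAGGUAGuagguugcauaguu
mmu-let-7i-5p: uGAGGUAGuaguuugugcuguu
mmu-miR-98-5p: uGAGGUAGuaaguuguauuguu
Counted from 1 at the 5′ end and read against let-7a, let-7d differs at U1A and U16C, miR-98 at G11A and A19U, and let-7i at G12U, A17G, U18C and A19U. Let-7i differs from let-7a at 4 bases, the most of the 8 other names. The let-7a entry shown lies at chr13:48538239-48538260 on the minus strand.

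Matches to this seed were then looked for on the sense strand of the longest 3′UTR of each protein-coding gene (GENCODE M21, GRCm38). The 3 kinds of site searched were the 8mer CTACCTCA, the 7mer-m8 CTACCTC without the final A, and the 7mer-A1 TACCTCA without the leading C, each match being counted as 1 kind only. Of the 9 genes, 8 held a site and 7 held an 8mer, with 27 sites in all, 10 of them 8mers. Over 21020 genes, 14.9% held a site and 3.06% an 8mer, although the median 3′UTR of those genes, 961 bases, was shorter than that of 8 of the 9 genes described. Several of these genes are grouped here because they are known let-7 targets, so the share is a description and no test, and a match is a run of letters and not a measured site. The first 8mer of each gene, or the single 7mer of Hmga1, is shown with the match in capitals.
Lin28a, chr4:134005181-134005210, minus strand: cacagcctgttgaaCTACCTCAtttttgcc
Lin28b, chr10:45381014-45381043, minus strand: cccgggcgggaagtCTACCTCAtgcaagca
Igf2bp1, chr11:95961770-95961799, minus strand: ctgtgcgaagtaaaCTACCTCAaggtgtga
Igf2bp2, chr16:22059465-22059494, minus strand: cacacaaataaaagCTACCTCAggtgtttt
Igf2bp3, chr6:49086779-49086808, minus strand: gcatttttactcaaCTACCTCAggtattca
Hmga2, chr10:120364216-120364245, minus strand: ccgacattcaatttCTACCTCAgcatcagt
Arid3a, chr10:79953896-79953925, plus strand: aggcaagtttctttCTACCTCAggtctttt
Hmga1, chr17:27563277-27563306, plus strand: tcctctgttcacaaaCTACCTCtggacggt
All 8 windows lie within a single exon, in the 3′UTR.

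Hmga2 held the most sites of the 9 genes, 7 in 3014 bases, of which 1 was an 8mer, 3 were 7mer-m8 and 3 were 7mer-A1. As many were found in 5 of the 21020 genes, Hmga2 included, and in 0.180% of the 3′UTRs within 10% of its length. The Hmga2 8mer begins 58 bases after the stop codon and the Lin28b 8mer 36 bases after it, while the last Hmga2 site begins at base 2611. Lin28b held 5 sites in 4445 bases and Igf2bp1 held 5 in 6337 bases, a count reached by 17 of the 21020 genes. Igf2bp1 was the gene of the 9 with the most 8mers, 3, and Lin28a held 2 sites in 2775 bases, both 8mers. Arid3a held 4 sites in 3082 bases, Igf2bp2 held 2 in 1784 bases, Igf2bp3 held 1 in 2119 bases and Hmga1 held 1 in 1183 bases. In Igf2bp2 the sites begin at bases 1313 and 1330, and in Igf2bp1 the 8mer at base 1715 is followed by a 7mer-A1 at base 1734. Dis3l2, the nuclease of the pathway, had none of these letters in its 350-base 3′UTR. Among 3′UTRs within 10% of that length, 4.17% held a site.

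**Figure D1:**
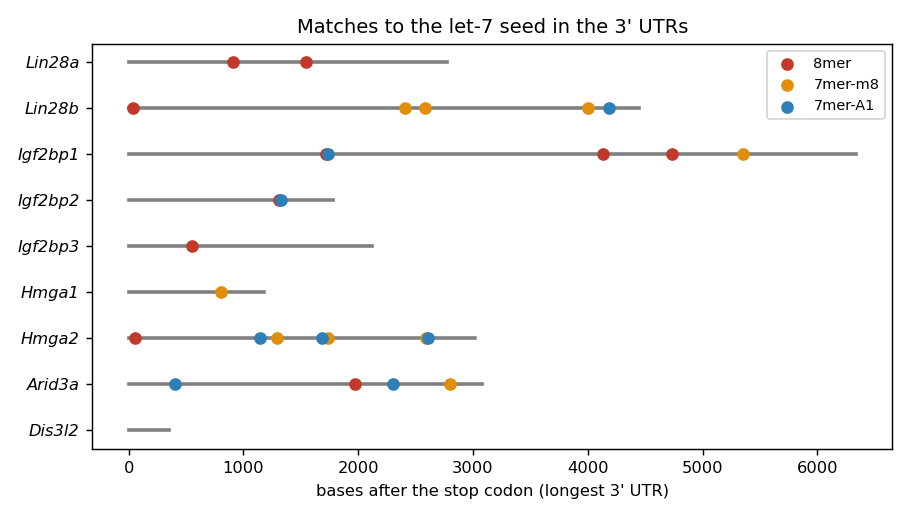
Position of each let-7 seed match along the longest 3′UTR of the 9 genes, in bases after the stop codon; grey lines give the length of the 3′UTR and colours the kind of site. Hmga2 carries 7 matches from base 58 to base 2611, Lin28b and Igf2bp1 carry 5 each, and Dis3l2 carries none.

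The level of each gene is given as CPM (reads scaled to a library of 1000000), from the deposited average log2 CPM after removal of a prior count of 2 reads per library. That prior was assumed, and it turned the low values into whole reads: of 5453 rows with 1 to 20 reads, 97.5% came within 0.1 of a whole number. The average effective library held 1.31e+07 reads. Rows without reads numbered 11091, at a log2 CPM of -2.71, and 19652 rows had reads, of which 9810 reached 1 CPM. Of the 9 genes, 5 reached 1 CPM, namely Igf2bp3, Igf2bp1, Lin28a, Lin28b and Igf2bp2, while Hmga2, Arid3a, Dis3l2 and Hmga1 did not. Their median log2 CPM was 1.56, beside 0.20 over the rows with reads and -2.17 over all rows. Igf2bp3 and Igf2bp1 together held 93.2% of the 43485 reads of the 9 genes. Intervals below are exact 95% Poisson intervals on the reads of all 12 livers, and they cover counting error only, not the spread between livers.

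Lin28a (chr4:134003330-134018841, minus strand), the LIN28 paralog first described in embryonic stem cells, averaged 3.34 on the log2 CPM scale. This corresponds to 1570 reads (1493 to 1650) and 9.97 CPM, which placed it at percentile 71.9 of the rows with reads. Lin28b (chr10:45376620-45486395, minus strand), the paralog linked to fetal blood formation, averaged 2.50 on the log2 CPM scale, which is 868 reads (811 to 928) or 5.51 CPM. Levels were compared between genes only per kilobase of the longest transcript. On that scale Lin28a stood at 2.84 and Lin28b at 1.02 CPM per kilobase, a ratio of 2.79, and their counting intervals did not overlap. Both paralogs were therefore detected in whole fetal liver. Lin28a was the higher of the pair under all 4 definitions of gene length used, with a ratio of 4.10 for the union of exons and 10.9 for the median transcript. The longest transcript of each is also its longest protein-coding transcript, so that definition only repeats the ratio of 2.79.

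The 3 Igf2bp genes, a single family, lay far apart. Igf2bp3 (chr6:49085223-49214957, minus strand) was the highest of the 9 genes at a log2 CPM of 7.09, which is 21471 reads or 136.3 CPM (134.5 to 138.1), at percentile 94.1 of the rows with reads. Igf2bp1 (chr11:95957163-96005940, minus strand) followed at a log2 CPM of 6.92, which is 19056 reads or 120.9 CPM. Igf2bp2 (chr16:22059009-22163299, minus strand), the family member that remains expressed in many adult tissues, had a log2 CPM of 1.56, with 441 reads (401 to 484) and 2.80 CPM. Per kilobase the order was Igf2bp3 at 31.4, Igf2bp1 at 14.4 and Igf2bp2 at 0.565 CPM per kilobase. Igf2bp3 was thus 55.5 times and Igf2bp1 25.5 times the level of Igf2bp2 per kilobase. With the median transcript as the length these ratios were 49.6 and 45.3. Other genes overlap 18.7% of the exonic bases of Igf2bp3, and the library kit does not mark strand, so reads of that stretch cannot be assigned to 1 gene. Between Igf2bp3 and Igf2bp1, the ratio per kilobase was 2.17 with the longest transcript, 1.34 with the union of exons and 1.09 with the median transcript.

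**Figure D2:**
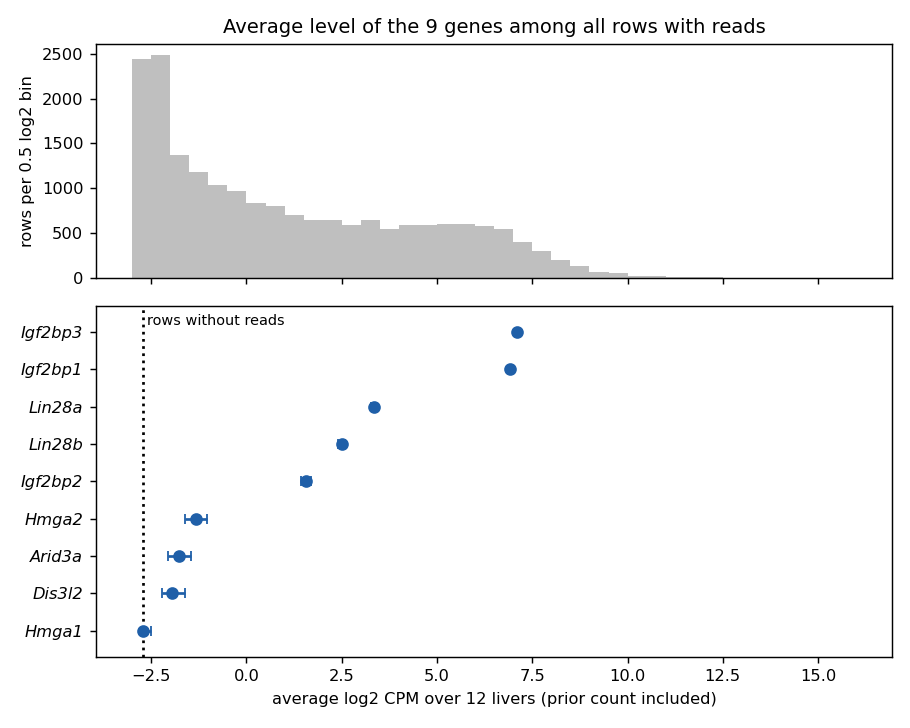
Top, number of table rows with reads per 0.5 log2 CPM; bottom, average log2 CPM over 12 livers of each of the 9 genes, with 95% Poisson intervals for counting error only; the dotted line marks rows without reads. Igf2bp3 and Igf2bp1 lie near 7, Lin28a, Lin28b and Igf2bp2 between 1.56 and 3.34, and the other 4 genes below -1.

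The remaining 4 genes had few reads or none. Hmga2 (chr10:120361275-120476469, minus strand), a classical let-7 target and chromatin protein of fetal stem cells, had a log2 CPM of -1.32, which is 39.1 reads (27.7 to 53.3) over all 12 livers or 0.248 CPM. Arid3a (chr10:79927043-79955018, plus strand) had a log2 CPM of -1.78, with 21.9 reads (13.8 to 33.3) and 0.139 CPM. Dis3l2 (chr1:86703808-87050095, plus strand) had a log2 CPM of -1.94, with 17.0 reads (9.90 to 27.2) and 0.108 CPM. Hmga1 (chr17:27556497-27563674, plus strand) was listed at 0, and a count of 0 has an upper limit of 3.69 reads over the 12 livers. Per kilobase of the longest transcript, Hmga2 stood at 0.0651, Arid3a at 0.0260 and Dis3l2 at 0.0206 CPM per kilobase. Arid3a and Dis3l2 did not differ beyond counting error, as their counting intervals per kilobase overlapped. Those of Hmga2 (0.0462 to 0.0888) and Arid3a (0.0163 to 0.0394) did not overlap with the longest transcript as the length, but did with the union of exons. Igf2bp2, the lowest of the 5 better measured genes, stood at 8.68 times Hmga2 per kilobase, and at 57.8 times with the median transcript as the length. Both ratios take the row of Hmga2 as it stands, and a copy of the gene with a row of its own is described below.

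The 9 genes thus ran, per kilobase, from Igf2bp3 through Igf2bp1, Lin28a, Lin28b, Igf2bp2, Hmga2 and Arid3a to Dis3l2, with Hmga1 listed at 0. The level per kilobase of Igf2bp3 was 1519 times that of Dis3l2, which rests on 17.0 reads. The ratio of the highest to the lowest gene with reads was 1207 with the longest protein-coding transcript and 6732 with the median transcript as the length. The order was the same with the union of all exons as the length. With the longest protein-coding transcript, Dis3l2 and Arid3a changed places, at 0.0343 and 0.0260 CPM per kilobase. With the median transcript of each gene they changed places too, and Igf2bp2, at 3.87, passed Lin28b, at 1.90 CPM per kilobase. Short annotated fragments make up many of the transcripts of Lin28a, Igf2bp1, Igf2bp2 and Igf2bp3. Their median transcripts were 481, 690, 724 and 711 bases long, beside 2902 for Lin28b and 3710 for Hmga2. With the median transcript as the length, this difference raises Lin28a and Igf2bp2 against Lin28b and Hmga2.

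**Figure D3:**
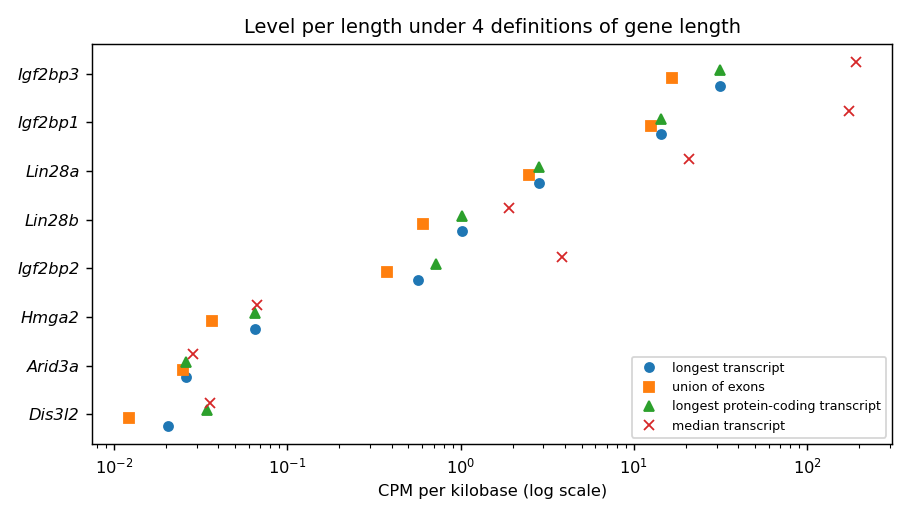
CPM per kilobase (log scale) of the 8 genes with reads, under 4 definitions of gene length. The upper 3 genes keep their order under all 4, while Arid3a and Dis3l2 lie close together and change places. For the upper 3 genes the longest transcript and the longest protein-coding transcript are the same.

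The level of the 9 genes was also set beside the number of their transcripts. All 5 of the genes above 1 CPM have 1 curated RefSeq mRNA each, and all 4 of those below it have more, with 2 for Hmga2, 2 for Dis3l2, 3 for Arid3a and 14 for Hmga1. Over 18368 protein-coding symbols matched to RefSeq, 47.4% of the 11286 genes with 1 curated mRNA reached 1 CPM, and 38.7% of the 7077 genes with 2 or more. The share at 0 reads went the other way, at 24.4% for genes with 1 curated mRNA and 18.5% for those with 2 or more. At 10 CPM the shares were 32.7% and 15.7%. The upper quartile of reads was 4041 for genes with 1 curated mRNA and 545 for those with 2 or more. Among all genes with 2 or more curated mRNAs, Hmga2 stood at percentile 45.3, Arid3a at percentile 39.9 and Dis3l2 at percentile 37.9. Igf2bp3 stood at percentile 92.2 of the genes with 1 curated mRNA. Whether the number of transcripts had a part in the low values of these 4 genes was not tested.

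Some genes known in most cells, or in cells of the fetal liver, were also low in the same table. Ppia, a cyclophilin used as a reference gene, had 0.0127 CPM, Kit, the receptor of stem and progenitor cells, had 1 read, and Pecam1, an endothelial marker, was listed at 0. Of 15 reference genes added after the values had been seen, 11 reached 1 CPM and none was at 0. For Hmga1 there is a near copy in the genome besides its 14 curated mRNAs. Of the 50-base windows of its longest transcript, 69.1% also occur in GENCODE transcripts of other genes, whereas this share was at most 0.877% for the other 8 genes described. The value of Hmga1 is therefore uncertain, and being listed at 0 says nothing about absence of the mRNA. Hmga2 has an annotated copy, the transcribed pseudogene Hmga2-ps1 (chr1:176834624-176836133, RefSeq), whose row held 1502 reads or 9.53 CPM, beside 39.1 reads for Hmga2 itself. The sequence that Hmga2 and Hmga2-ps1 share was not measured here, since the copy is not among the GENCODE transcripts used.

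**Figure D4:**
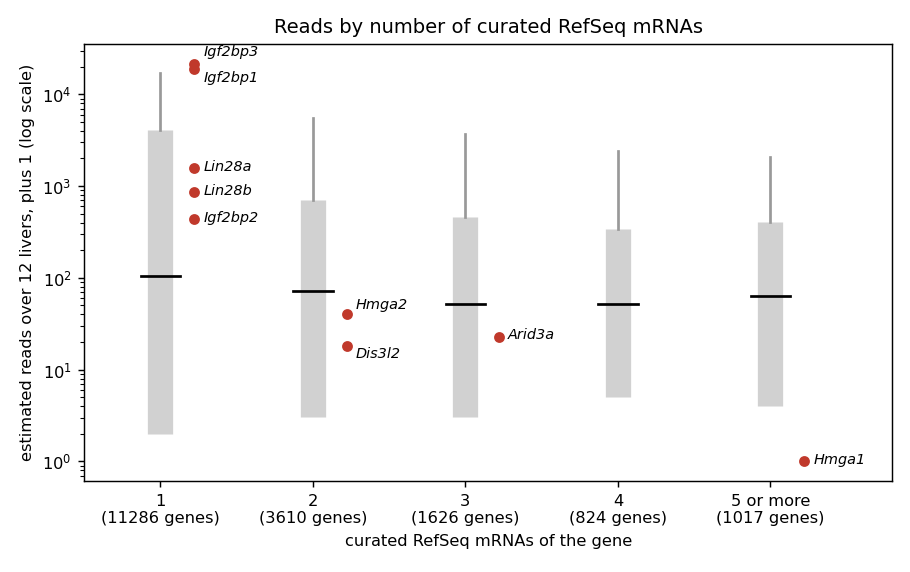
Estimated reads over 12 livers plus 1 (log scale) against the number of curated RefSeq mRNAs of a gene; grey bars span the quartiles, black lines the medians and thin lines reach the 90th percentile of protein-coding genes, and red points are the 9 genes. The 5 genes with 1 curated mRNA lie above the median of their class, and the 4 with more lie below theirs.

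The mature let-7 RNAs themselves were not measured, since polyA selection and fragment length leave them out. The table has 12 rows for let-7 and miR-98 hairpin genes, of which 4 were at 0 reads, and all 12 together held 38.0 reads. More of these fell to Mirlet7d than to any other of the 12 rows. The origin of these reads was not tested, and they give no level of the mature RNA.

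Among 28 rows for other proteins that make, tail or use let-7, with exonucleases and RNA-binding proteins listed beside them, 19 reached 1 CPM. Their median log2 CPM was 1.48. Zcchc6, one of the uridylyl transferases that tail let-7 precursors, stood at 17.9 CPM per kilobase, and Zcchc11, the other, at 0.462 CPM per kilobase. Trim71, a let-7 target of early embryos and partner of the pathway, stood at 1.36 CPM per kilobase, between Lin28a and Lin28b. Xpo5, which exports the precursors from the nucleus, stood at 11.1, Dicer1, which cuts them, at 0.577, and Drosha, which makes them, at 0.171 CPM per kilobase. Eif2c2, the older symbol of Ago2, the catalytic Argonaute that carries mature let-7, stood at 39.9 CPM per kilobase and had the most CPM of the list, 550.8. Khsrp, a protein that promotes let-7 processing, was the highest of the list per kilobase, at 105.0, and Xrn1, a cytoplasmic exonuclease, was the lowest, at 0.00868 CPM per kilobase. Of the 28, 2 lay above Igf2bp3 per kilobase, namely Khsrp and Eif2c2. In this list 11 of 14 genes with 1 curated mRNA reached 1 CPM, and 8 of the 14 with more. Over all matched protein-coding genes these shares were 47.4% and 38.7%.

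Among 32 rows for further let-7 targets, Trim71 counted again, 21 reached 1 CPM, with a median log2 CPM of 2.69. These were 14 of 18 genes with 1 curated mRNA and 7 of 14 with more, beside 47.4% and 38.7% over all matched genes. E2f2, a cell cycle factor of erythroblasts, was the highest at 259.9 CPM per kilobase, and Prdm1 was the lowest at 0.00119 CPM per kilobase. The cyclins Ccnd1 and Ccnd2 stood at 31.5 and 18.4, Cdc25a, a cell cycle phosphatase, at 20.5, and Nras at 22.5 CPM per kilobase. Igf2, the fetal growth factor whose mRNA IGF2BP proteins are named for binding, stood at 78.6 CPM per kilobase. Of these 32 genes, 5 lay above Igf2bp3 per kilobase. Myc was at 0.114 CPM per kilobase. The further targets ran both above Igf2bp3 and below Dis3l2. Lin28b, Hmga2 and the Igf2bp genes were left out of this count.

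**Figure D5:**
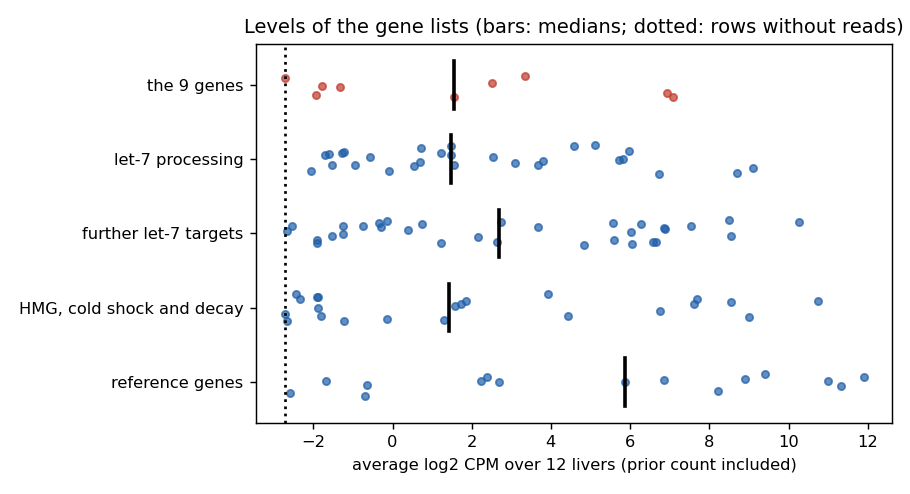
Average log2 CPM over 12 livers of the 9 genes (red) and of 4 lists of other genes (blue), with 1 point per gene and black bars for medians. The medians of the 9 genes and of the let-7 processing genes are 1.56 and 1.48, and that of the further let-7 targets is 2.69; the reference genes were added after the values had been seen.

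The highest cell type markers were those of hepatocytes and erythroid cells, and most markers of other organs reached 1 CPM as well. The planned markers Hba-a1, Hbb-bt, Epb42, Ly6g and Map2 had no row under these symbols and are left out of the counts. Hepatocyte markers reached 1 CPM in 4 of 4 cases, led by Alb at 63314 CPM, and erythroid markers in 4 of 4, led by Hbb-b1 at 24904 CPM. Of the stem and progenitor markers, 1 of 4 did, with Hlf at 1.38, Cd34 at 0.988 and Mecom at 0.0633 CPM beside the single read of Kit. Other cells of the liver were represented by 2 of 3 myeloid, 2 of 2 megakaryocyte, 2 of 3 B lineage, 2 of 3 endothelial and 3 of 3 mesenchymal markers at or above 1 CPM. Markers of other organs reached 1 CPM in 2 of 3 pancreas acinar, 2 of 2 gut, 2 of 2 muscle and 1 of 1 brain cases. The highest of each were Cpa1 of the pancreas at 7.89, Fabp2 of the gut at 15.3, Acta1 of muscle at 54.9 and Tubb3 of neurons at 2.09 CPM. Prss1 of the pancreas was the one below 1 CPM, at 0.132. Whether tissue of other organs was sampled with the livers was not tested. The cell type from which the reads of Lin28b, Igf2bp1 or Igf2bp3 came was not tested, as each value is an average over whole livers.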

How the data were processed

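PolyA RNA of 12 fetal livers (6 control, 6 HFD) was sequenced on an Illumina HiSeq. Per the submitters' processing notes the authors used cutadapt 1.2.1, Subread 1.3.6-p1, the build mm10 and edgeR. The counting tool, its strand setting and its treatment of genes with several transcripts are not given in the sources used here. The deposited table gives an average log2 CPM per gene over all 12 livers, made by the authors, and their diet comparison (log2 fold changes, fold changes, p-values and adjusted p-values for common and tagwise dispersion), which was not used. The planned test of diet needs values of single livers and was not run. Reads over all livers were computed from the log2 CPM with a prior count of 2. The computation was also run on simulated data made with the same prior count and the same dispersion for all genes. Such data cannot check the assumed prior or the dispersions behind the deposited values. Gene lengths, positions and 3′UTRs were read from the GENCODE M21 annotation of GRCm38 (the assembly mm10 stands for), and curated mRNAs (NM accessions), miRNAs and gene copies from RefSeq, with older symbols matched through its synonyms. All 9 members matched. Named genes were the 9 members, the highest and lowest of each list and those needed to describe a pathway. The members and lists were chosen with earlier results of these data known. Alternatives were the background of the percentile and the gene length. Computations ran in Python 3.11.15 with pandas 2.3.3, numpy 2.4.6 and scipy 1.17.1, and figures were drawn with matplotlib 3.10.9.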

Additional observations from a re-analysis of the deposited data

How the results depend on the processing

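The count of genes at or above 1 CPM, 5 of 9, uses neither the background nor the length, so those alternatives could not change it. With the prior count kept, an alternative that was not planned, it was also 5. The percentile of the median gene, Igf2bp2, was 60.6 among rows with reads, 74.8 among all rows and 21.0 among rows at or above 1 CPM. The median level over the 9 genes was 0.565 CPM per kilobase with the longest transcript, 0.378 with the union of exons, 1.90 with the median transcript and 0.718 with the longest protein-coding transcript. The last of these was chosen after seeing the data. Of 24 values per length for the genes with reads, 14 moved beyond the counting interval and 10 did not. The planned second copy of the average level, the coding length from a protein table and the sums over older and newer symbols gave no value and were not run. The alternatives for the diet comparison, leaving out single livers included, need values of single livers. No paired analysis was possible because no value of a single liver was used. Depth limits Hmga2, Arid3a and Dis3l2, with 17.0 to 39.1 reads over all livers, and an error between livers is unknown for every gene. For Hmga2, reads that may have gone to the row of Hmga2-ps1 are a further limit, which was not tested.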

Other observations

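Relatives of the 9 genes were looked up in a list of 22 rows of HMG-box, HMGN, cold shock, RNA decay and mRNA-binding genes, of which 12 reached 1 CPM and 1, Arid3c, was listed at 0. Pabpc1, the cytoplasmic poly(A)-binding protein, was the highest at 593.1 CPM per kilobase. Ybx1, a cold shock domain protein as LIN28 is, stood at 312.3, Hmgn1 at 94.5 and Hmgn5 at 55.7 CPM per kilobase. All 3 stood above Igf2bp3, at 31.4 CPM per kilobase. The relatives of Dis3l2, Dis3 and Dis3l, stood at 0.0234 and 0.0331 CPM per kilobase, beside 0.0206 for Dis3l2. H19, the long noncoding RNA next to Igf2, had 1 read. As with Ppia and Pecam1, this value alone does not show that the RNA is absent. In this list, 4 of 6 genes assigned 1 curated mRNA reached 1 CPM, and 8 of 16 assigned more, beside 47.4% and 38.7% over all matched genes. The 16 include H19, which was assigned 4 although it is noncoding.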
